A study of Mus musculus with 74 samples.

Results

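Genes for RNA splicing and RNA binding were followed through a TGF-β time course on mouse cDNA arrays. The set holds every probe that the array's annotation gives a single gene symbol starting with Srsf, Hnrnp, Snrp, Sf3a, Sf3b, Prpf, Pabp, Celf, Cpsf or Cstf, or with Ddx, Dhx, Rbm or Lsm followed by a number. It comprises 96 of the 8976 probes on the array and stands for 70 of the 5844 genes named by a single symbol, of which 20 have several probes and 50 have 1. All 96 probes matched a RefSeq gene, and no Pabp probe was found. By name the 96 probes divide into 19 of Rbm, 17 of Hnrnp, 11 of Snrp and Lsm, 11 of Ddx, 9 of Prpf, 8 of Cpsf and Cstf, 7 of Sf3a and Sf3b, 5 of Dhx, 5 of Celf and 4 of Srsf. The choice used names alone and no measured value.

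Each of the 74 arrays gives the log2 ratio between its pair of channels, and the 25 groups are 5 lines by 5 times. S2WT and S3WT are the wild-type lines, S2KO and S3KO are read from their names as lines lacking Smad2 and Smad3, and the arrays labelled U0126 name S2WT and the MEK inhibitor U0126. At 0.3, 1, 2 and 4 h the channel labels name cells of the same line without and with TGF-β, and at 0 h both channels are labelled as free of it. The titles of the U0126 arrays set S2WT against U0126, while both channel labels carry the 2 names, so the labels do not settle whether the inhibitor was in both channels. Every group had 3 arrays except S3KO at 1 h, which had 2. A channel label gives 2 h for the S2WT arrays titled 4 h, and another names no TGF-β on either side for S3KO at 0.3 h. The labels name no cell type, and say neither whether a line is 1 clone nor whether replicates are separate cultures, so p-values measure only the spread between these arrays. Because each ratio lies within a line, it can show neither the loss of a Smad nor which cell type was grown. The files do not state the direction of the ratio. It was read as likely TGF-β over control. Of 13 tested probes of known early TGF-β targets, 9 were called higher after 1 to 4 h, where 0.873% of all probes were. Hbegf, a growth factor gene (1.33 ± 0.17, SE), and Gadd45b, a stress gene (1.03 ± 0.15), led them. This list was chosen with earlier results of these data known, so it is no independent check. Against its own 0 h arrays, S2KO had 5 of 14 tested probes of this list called. By the same test S2WT had 2 of 13 and S3WT had 1 of 13. U0126 had 0 of 14 and S3KO had 0 of 13. Against all 0 h arrays joined into a single background, 13 probes of the list could be tested per line. S2KO then had 10 called, S2WT had 7, U0126 and S3WT had 4 each, and S3KO had 0.

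Splicing removes introns through the spliceosome, which is built from small nuclear RNAs wrapped by Sm and Lsm proteins, the Sf3 complexes that hold the branch point, Prp proteins and RNA helicases. SR proteins, hnRNPs, Celf and Rbm proteins bind the transcript and shift which exons are kept, and the Cpsf and Cstf complexes cleave its end for polyadenylation. TGF-β acts through receptor kinases that phosphorylate Smad2 and Smad3. Complexes of these with Smad4 bind DNA at elements containing CAGACA. Many splicing regulators are controlled by phosphorylation, localisation or their own splicing, none of which a ratio of total transcript would show.

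Promoters are shown for the Hnrnpul1 and Rbm33 genes, whose probes had the smallest p in the mean response to TGF-β. They are the 250 bases before the start site from RefSeq on GRCm38.p6, at chr7:25754760-25755009 on the minus strand for Hnrnpul1 and at chr5:28316939-28317188 on the plus strand for Rbm33. Capitals mark CCAAT on either strand in Hnrnpul1 and CAGACA on either strand in Rbm33.
Hnrnpul1: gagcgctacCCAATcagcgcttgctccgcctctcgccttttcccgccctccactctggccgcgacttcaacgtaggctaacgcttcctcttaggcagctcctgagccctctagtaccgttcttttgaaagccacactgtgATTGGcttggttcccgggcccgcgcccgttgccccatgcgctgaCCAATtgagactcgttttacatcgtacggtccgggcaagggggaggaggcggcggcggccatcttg
Rbm33: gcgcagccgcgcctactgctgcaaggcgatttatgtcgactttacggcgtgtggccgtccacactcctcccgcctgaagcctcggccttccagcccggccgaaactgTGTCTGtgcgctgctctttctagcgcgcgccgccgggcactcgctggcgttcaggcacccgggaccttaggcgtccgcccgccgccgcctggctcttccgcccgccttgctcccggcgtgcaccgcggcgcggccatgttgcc
The Hnrnpul1 sequence holds CCAAT 3 times, and the Rbm33 sequence holds CAGACA once, read as TGTCTG. The promoter table, which adds 50 bases after the start, held 87 promoters of 64 of the 70 genes. CAGACA on either strand was in 10 of these (11.5%), against 18.9% of the 21263 promoters of protein-coding genes. CCAAT on either strand was in 39 (44.8%), against 38.2%. Promoters of the RNA-processing genes had a median GC content of 60.0% and 24 CpG dinucleotides, against 56.3% and 13 for protein-coding genes at large. A match of letters is a description and shows no binding.

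Of the 96 probes, 81 to 96 were measured on an array, and 3.89% of their values were missing, against 6.48% over the whole array. Replicate arrays of a group correlated between -0.05 and 0.38 across all probes. The S3KO 1 h replicate 2 array had the lowest median correlation to the other arrays, -0.07, and the next lowest array had -0.05. The fitted spread between replicate arrays was smaller for these genes than for the array at large. The median residual SD, which limma draws toward a value shared by all probes, was 0.46 against 0.58. It ranged from 0.22 for Hnrnpr to 1.41 for an Hnrnph1 probe. Array number, 2 or 3 a group, limits the precision of every value here.

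The first comparison asks whether TGF-β changes transcripts of the RNA-processing machinery in these lines as a whole. A response is the mean of the 1, 2 and 4 h group means minus the 0 h mean of the same line, and the mean response averages the 5 lines. None of the 82 testable probes changed by limma at an adjusted p under 0.05, where 1.07% of the 6531 probes tested on the whole array were called (0.873% higher and 0.199% lower). At an unadjusted p under 0.05 there were 5, or 6.10%, against 10.5% of all probes. The median mean response was 0.05, against 0.00 over all probes, and 49 of the 82 values were above 0 (59.8%, against 50.9% of all probes). The values ran from -0.38 for a Cpsf2 probe to 0.57 for Prpf39. The 95% interval lay within a log2 change of 1 either way for 79 of the 82 (96.3%, against 94.3% of all probes). The 3 whose interval reached past 1 were Ddx10 (0.37, -0.39 to 1.12), Dhx32 (0.39, -0.26 to 1.03) and Prpf39 (0.57, 0.02 to 1.13). Leaving out S3KO 0 h replicate 3 kept only 1 measured Ddx27 array in that group, and the mean response of Ddx27 was then -0.58. Ddx27 passed in that fit, which is not read as a result because it rests on 1 array at 0 h in S3KO.

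**Figure D1:**
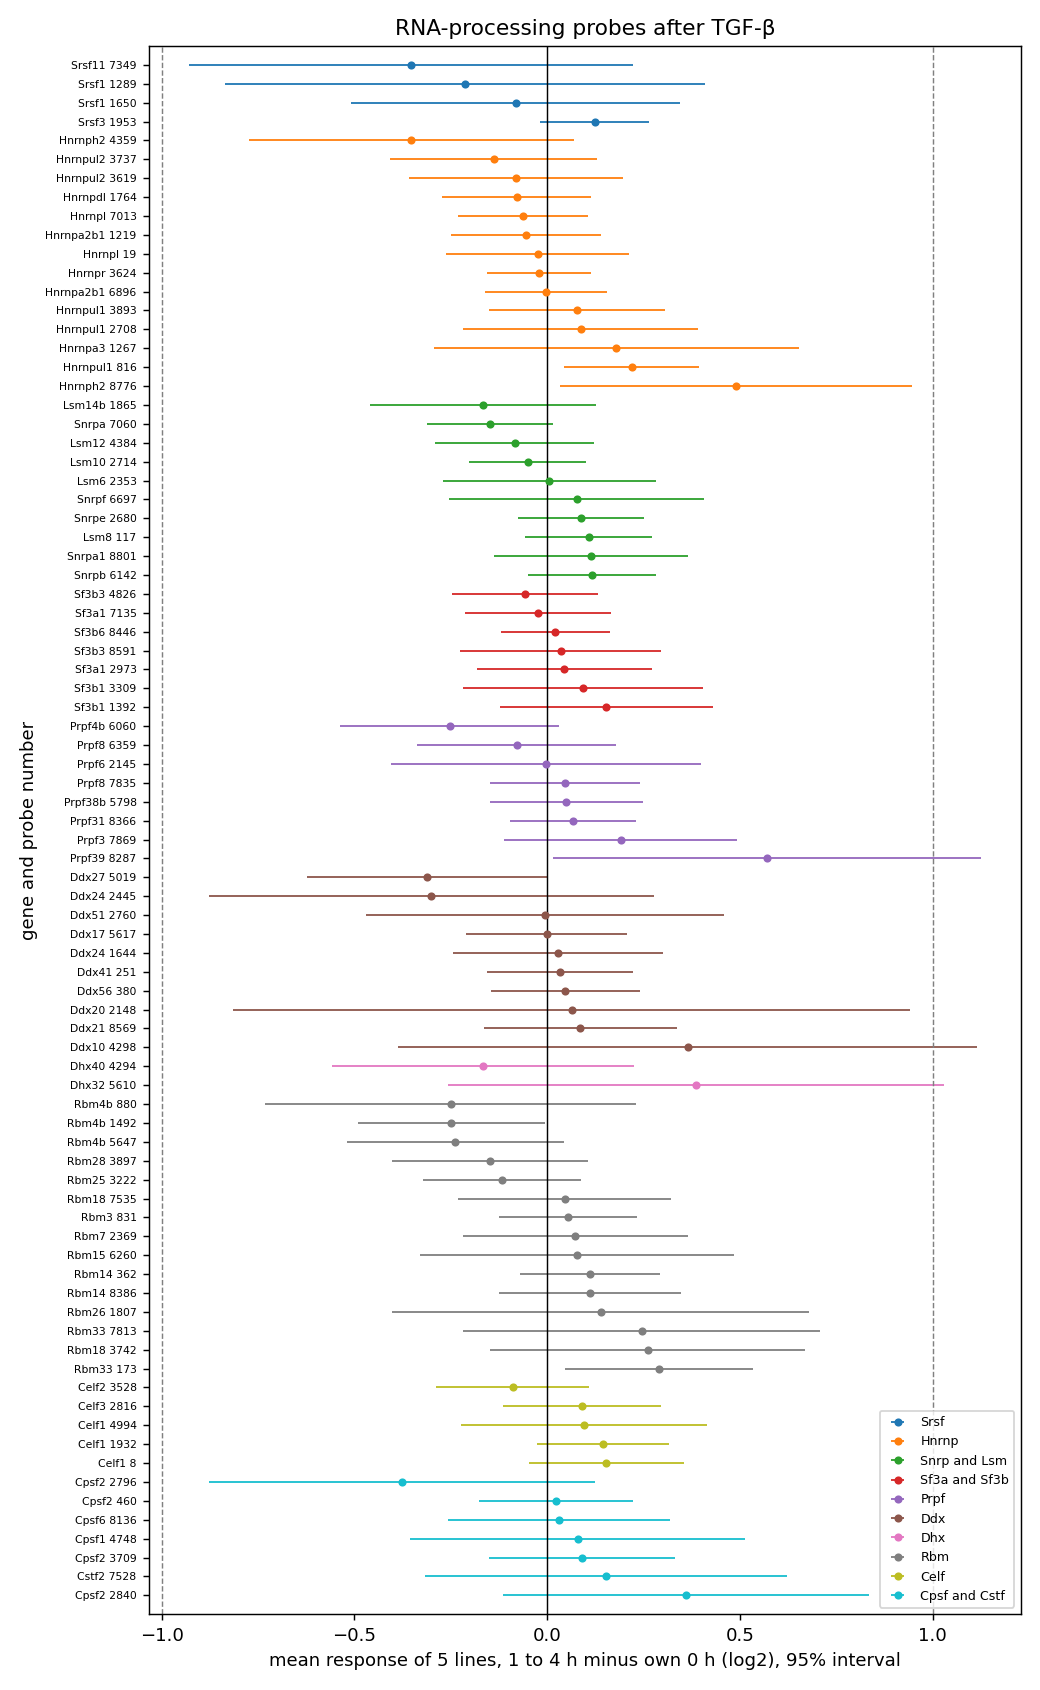
The mean response of each of the 82 testable probes is plotted in log2 units (horizontal axis) as a point with its 95% interval, one line per probe, coloured by family. Points lie between -0.38 and 0.57, and all but 3 intervals stay between the dashed lines at -1 and 1.

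The smallest p belonged to a probe of Hnrnpul1, an hnRNP U-like protein with a role in the DNA damage response. On its 15 arrays at 0 h the ratio of this probe ran from -0.34 through a median of 0.20 to 0.71, and on 44 arrays at 1 to 4 h from -0.07 through 0.47 to 1.06. The later arrays sat higher on the whole, but the ranges overlapped widely. The mean response of this probe was 0.22 ± 0.09 (SE), above 0 in 5 of 5 lines, and did not pass (limma adjusted p = 0.337). The S3KO response was the largest of the 5 at 0.55, from a 0 h group whose 3 arrays read -0.09, -0.03 and -0.34 where the other lines had 0 h means above 0. The other Hnrnpul1 probes gave 0.09 and 0.08.

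Rbm33, an RNA-binding protein gene, came next at 0.29 ± 0.12 (adjusted p = 0.374). Its ratio was mostly below 0 at every time, from -2.56 through -0.36 to 0.15 on 15 arrays at 0 h and from -1.44 through -0.29 to 0.66 on 43 later arrays. The lowest array, U0126 at 0 h replicate 2, set much of the difference, and without it the mean response was 0.16. The other Rbm33 probe gave 0.25 ± 0.23.

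Snrpa encodes the A protein of the U1 small nuclear ribonucleoprotein, which marks the start of an intron. Its ratio was already high at 0 h, from -0.28 through 0.64 to 1.16 with 13 of 15 arrays above 0. At 1 to 4 h it ran from -0.26 through 0.54 to 0.96 with 42 of 44 above 0. The mean response was -0.15 ± 0.08 (adjusted p = 0.539), which did not pass, so its high ratio was seen without TGF-β as with it.

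**Figure D2:**
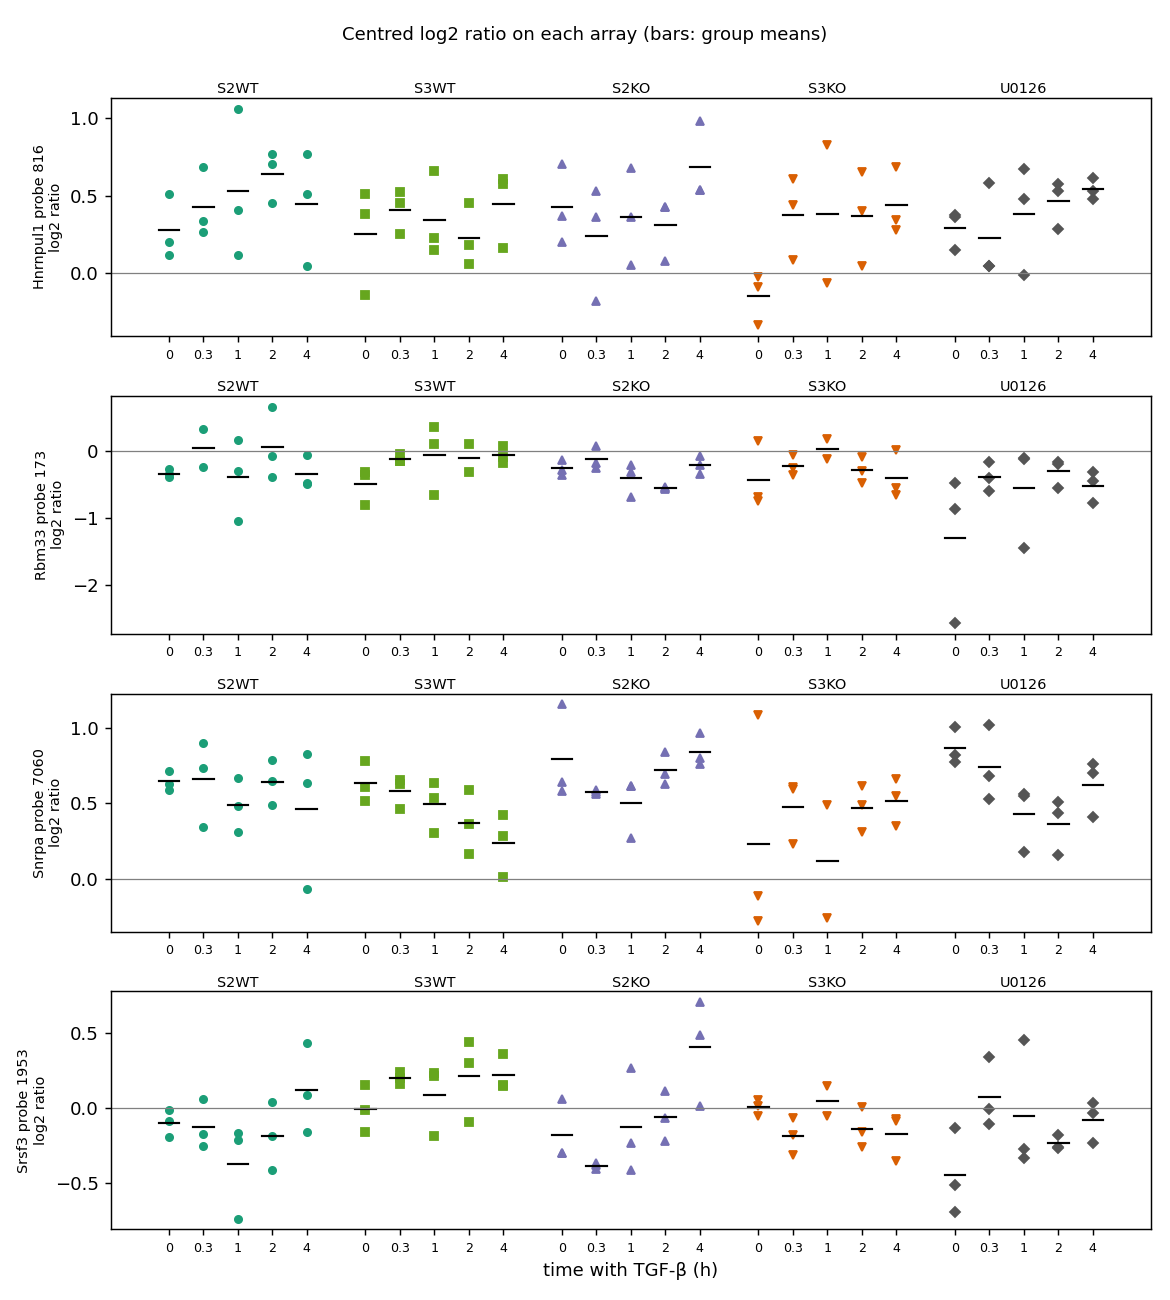
Each panel plots the median-centred log2 ratio of 1 probe (vertical axis) on every array, by line and by hours with TGF-β, with points for arrays and bars for group means. The Snrpa probe sits above 0 in all 25 groups, the Hnrnpul1 probe in 24, the Rbm33 probe in 3 and the Srsf3 probe in 9.

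No probe of the spliceosome core passed in the mean response. The 10 testable Snrp and Lsm probes ran from -0.17 for Lsm14b, a P-body protein gene, to 0.12 for Snrpb, a core Sm protein gene (0.12 ± 0.08). Snrpa1, a U2 small nuclear ribonucleoprotein gene, had the second probe above 0 in all 5 lines, at 0.11 ± 0.13. Probes above 0 in all 5 lines were 2 of 82, or 2.44%, against 4.06% of all probes. The 7 probes of Sf3a and Sf3b lay between -0.06 and 0.15. Sf3b1, the branch-point subunit often mutated in myeloid disease, had both of its probes above 0, at 0.15 ± 0.14 (adjusted p = 0.771) and 0.09 ± 0.16.

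Among the 8 testable Prpf probes the values ran from -0.25 for Prpf4b, a kinase gene of the tri-snRNP (-0.25 ± 0.14, adjusted p = 0.552), to Prpf39. Prpf39 encodes a U1-associated factor and had the highest estimate of the 82, at 0.57 ± 0.28 (adjusted p = 0.453). Its 0 h arrays ran from -3.0 through -0.46 to -0.09, and the later ones from -3.96 through -0.14 to 1.72. Single arrays thus spread much more widely than the groups differed. Prpf8, the scaffold at the heart of the spliceosome, read -0.08 and 0.05 on its 2 probes.

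Of the helicases, 10 Ddx and 2 Dhx probes could be tested. The Ddx probes ran from -0.31 for Ddx27, a nucleolar helicase gene of ribosome assembly (-0.31 ± 0.16, adjusted p = 0.484), to 0.37 for Ddx10, another nucleolar helicase gene. Ddx17, a helicase and transcription cofactor gene, was at 0.00 ± 0.10 and Ddx41 at 0.03 ± 0.09. Dhx32 gave 0.39 ± 0.32 and Dhx40 gave -0.17 ± 0.20. Dhx38 and Dhx8, whose products remodel the spliceosome between its steps, were among the 14 probes left untested because a group had too few measured arrays.

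Regulators of exon choice did not pass either. Srsf3, a small SR protein gene that also serves mRNA export, was at 0.12 ± 0.07 (adjusted p = 0.559), and its group means over the 5 lines moved from -0.15 at 0 h to 0.10 at 4 h. The founding SR protein gene Srsf1 read -0.21 ± 0.31 and -0.08 ± 0.21, and Srsf11 read -0.35 ± 0.29. The 14 testable Hnrnp probes had a median of -0.02. Hnrnph2, a binder of G-rich RNA, had probes that pointed opposite ways, at 0.49 ± 0.23 (adjusted p = 0.421) and -0.35 ± 0.21. The first of these had 1 array at -4.57 in the S3KO 0 h group, where the others read -0.02 and -0.45.

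The 15 testable Rbm probes ran from -0.25 to 0.29. Rbm4b, a splicing regulator gene, had 3 probes at nearly the same value, -0.25, -0.25 and -0.24. The Rbm4b probe with the smallest p was below 0 in 5 of 5 lines (-0.25 ± 0.12, adjusted p = 0.456), and probes below 0 in all 5 were 1 of 82, or 1.22%, against 4.32% of all probes. Its 0 h arrays ran from -0.16 through 0.14 to 0.31, and its 42 later arrays from -1.85 through -0.07 to 0.38. The 2 ranges overlapped. Rbm3, a cold-induced gene, was at 0.05 ± 0.09, and Rbm14, a paraspeckle protein gene, at 0.11 on each of its 2 probes.

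Celf1, a binder of GU-rich RNA known from myotonic dystrophy, had 3 probes at 0.15 ± 0.09 (adjusted p = 0.575), 0.15 ± 0.10 and 0.10 ± 0.16. Of the cleavage and polyadenylation genes, 6 of 7 testable probes were above 0, where 50.9% of all probes were, and 4 of the 7 are of Cpsf2. Cpsf2, a subunit of the complex that reads the polyadenylation signal, spread over its 4 probes from -0.38 ± 0.25 to 0.36 ± 0.24, with pairs of probes correlating across arrays between -0.41 and 0.47. Cstf2, which binds the downstream GU-rich element, was at 0.15 ± 0.23.

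Probes of one gene often did not move together. Of 17 genes with several testable probes, 11 had all of them on the same side of 0 in the mean response, and 13 of 19 did so at 0 h. The median correlation between a gene's probes across arrays was 0.04, and the Sf3b1 pair reached 0.48. These correlations are descriptions over 74 arrays that share groups.

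Each line was next set against its own 0 h arrays, which asks whether a response is seen in each, S2KO, S3KO and U0126 included. No RNA-processing probe was called by limma in any line. In S2WT, where 0.192% of all probes were called, 6 of 96 RNA-processing probes had an unadjusted p under 0.05, against 7.8% of all. In S3WT the whole-array share was 0.12%, and 3 of 94 had such a p, against 5.47%. S2KO had 0.515% called on the whole array and 2 of 93 of the set at an unadjusted p under 0.05, against 8.22%. S3KO, with the most calls on the whole array (1.53%), had 7 of 86, against 10.8%. U0126, with 0.0719% called, had 6 of 94, against 6.35%. Between 51 and 57 intervals a line lay within a log2 change of 1, so a change beyond 2-fold was bounded for 61.3% of the probes at most, in S2KO. When the 15 arrays at 0 h were joined into a single background, no probe of the set was called either. The shares of all probes called were then 1.27% for S2WT, 0.146% for S3WT, 2.49% for S2KO, 0.0141% for S3KO and 0.782% for U0126. At an unadjusted p under 0.05 S2WT had 3 of the set (12.3% of all probes), S3WT had 5 (8.41%) and S2KO had 9 (14.9%). S3KO had 4 (5.17%) and U0126 had 8 (10.6%).

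**Figure D3:**
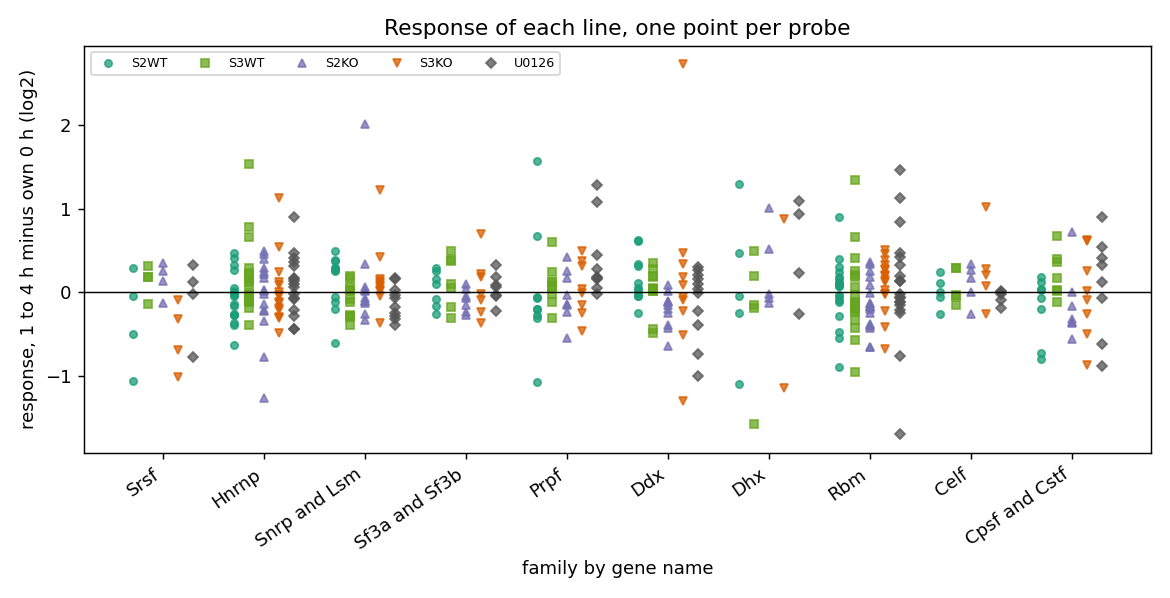
The response of each probe in each line, 1 to 4 h minus the line's own 0 h, is plotted in log2 units (vertical axis) by family, with one point per probe and one symbol per line. Points scatter on both sides of 0 in every family, from -1.70 for Rbm41 in U0126 to 2.73 for Ddx10 in S3KO, and none passed the test.

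In each line, the probe with the smallest p moved most when 1 array at 0 h was left out. In S2WT it was Prpf4b at -1.07 ± 0.31 (adjusted p = 0.169). Its 3 arrays at 0 h read 3.33, 0.02 and -0.07, while the 1 to 4 h arrays lay between -0.27 and 0.29. A single array was high, and without it the response was 0.05, while without either of the others Prpf4b was called (lowest adjusted p = 0.00753).

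In U0126 the lead was Rbm33 at 0.85 ± 0.27 (adjusted p = 0.333). Its 0 h arrays read -0.86, -2.56 and -0.47, and its later arrays ran from -1.44 to -0.10, so the groups overlapped. Without 0 h replicate 2 the response was 0.21, and without replicate 3 it was 1.26 and passed (adjusted p = 0.0372), together with Rbm18. In S3WT the lead was Rbm25, a regulator of apoptotic splicing, at 0.66 ± 0.23 (adjusted p = 0.339) and at 0.28 without 0 h replicate 2. Without S3WT 0 h replicate 3 a Rbm33 probe was called there. In S2KO it was an Hnrnph2 probe at -1.27 ± 0.51 (adjusted p = 0.432), measured on 2 arrays at 0 h that read 1.53 and -0.39. Without the higher of these it was at -0.30.

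S3KO held the lowest adjusted p of the 5 lines, for Ddx27. The 0 h arrays with a value read 2.25 and -0.46. The 1 h arrays read -0.57 and -0.17, the 2 h arrays -0.19, -1.54 and -0.04, and the 4 h arrays -0.89, 0.32 and -0.14. One 0 h array was far above all others of the line, and the second lay inside the range of the later ones. The response was -1.30 ± 0.40 (adjusted p = 0.0841). It was 0.06 without 0 h replicate 1 and -2.65 without 0 h replicate 3, each resting on 1 measured array at 0 h. With S3KO 1 h replicate 2 left out, which kept 1 array at 1 h, it was -1.23. Without S3KO 0 h replicate 3 Rbm25, Celf1, Snrpa and Ddx27 were called in the line, in a fit that accepts 1 measured array in that group. For Ddx27 that call rests on 1 array at 0 h. Over the S3KO fits with 1 array left out, 52 to 593 probes of the whole array were called, against 114 with all arrays. Ddx10 had a response of 2.73, with 0 h arrays at -5.43 and -0.83, and leaving out S3KO 0 h replicate 2 kept only 1 of these. A fit with 1 array left out called Ddx10 in S3KO.

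Differences between lines ask whether the response of S2KO or S3KO differs from that of its wild-type line, or the U0126 response from that of S2WT. With these labels, the loss of a Smad or the block of MEK cannot be told apart from other differences between the lines. The S2KO minus S2WT difference had 0 of 93 probes called by limma, where 0.0386% of all probes were called, and 5 at an unadjusted p under 0.05 (7.13% of all). The U0126 minus S2WT difference had 0 of 94, where 0.0252% of all were called, and 7 at an unadjusted p under 0.05 (6.11% of all). These 2 differences share the S2WT arrays. The leading members, Rbm7 of the nuclear exosome targeting complex at -1.06 ± 0.46 (adjusted p = 0.645) and Prpf4b at 1.35 ± 0.44 (adjusted p = 0.560), were picked after their values were seen. Rbm7 read -0.48, -2.18 and -0.21 on the S2WT 0 h arrays, and without the lowest its difference was -0.45. For Prpf4b the S2WT 0 h array at 3.33 is again in the difference, which was 0.24 without it, and which passed without S2WT 0 h replicate 2 (adjusted p = 0.0425).

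The S3KO minus S3WT difference also had 0 of 84 called by limma, where 0.126% of all probes were called, and 6 at an unadjusted p under 0.05 (9.05% of all). Rbm25 came closest of all the comparisons of responses. In S3WT it read -0.39, -1.53 and -0.39 at 0 h, and between -0.50 and 0.27 at 1 to 4 h. In S3KO it read 0.87, 0.47 and -0.15 at 0 h, and between -0.62 and 0.28 later. The 0 h arrays of the lines did not overlap with each other, while the later arrays did. The difference was -1.34 ± 0.32 (adjusted p = 0.0579), and on the 1 to 4 h arrays alone it was -0.17 (adjusted p = 0.999).

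The side of the threshold on which Rbm25 fell changed with single arrays and with the processing. With all arrays kept, its difference passed with arrays scaled to a common spread (-1.44, adjusted p = 0.0312), with probes measured on every array (-1.34, adjusted p = 0.0490) and with the replicate block (-1.32, adjusted p = 0.0452). It did not pass without centring (-1.39, adjusted p = 0.0995), with array weights (adjusted p = 0.139), with only the arrays of the 2 lines (adjusted p = 0.293), or when both Rbm25 probes were averaged (-0.71, adjusted p = 0.672). Its difference passed without S3KO 0 h replicate 3 (-1.61, adjusted p = 0.00204), without S3WT 0 h replicate 1 or replicate 3 (adjusted p = 0.0235 and 0.0383), and with the sign of S3KO 1 h replicate 2 turned (adjusted p = 0.0353). It fell to -0.96 (adjusted p = 0.285) without S3WT 0 h replicate 2. Without S3KO 1 h replicate 2, which kept 1 array in that group, it was -1.45. The other Rbm25 probe, which could not be tested in S3WT, had responses between -0.17 and 0.32 in the other lines. Across the 3 differences, intervals lay within a log2 difference of 1 for 39 of 93, 33 of 94 and 35 of 84 probes, so most of these intervals reached past a 2-fold difference.

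**Figure D4:**
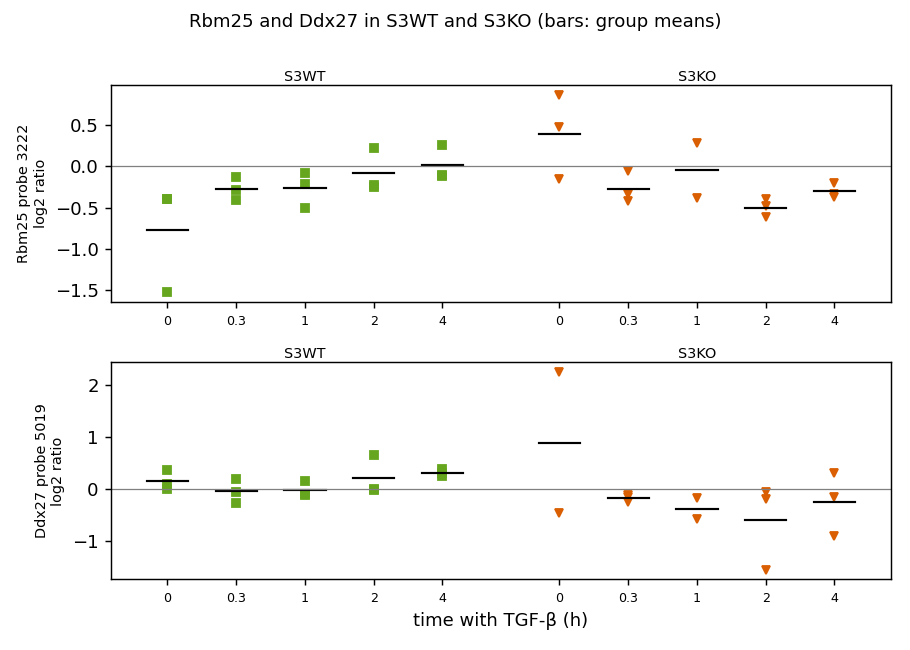
The centred log2 ratios (vertical axis) of Rbm25 and Ddx27 on each S3WT and S3KO array are plotted by hours with TGF-β, with points for arrays and bars for group means. The groups at 0 h stand farthest apart, with Rbm25 between -1.53 and -0.39 in S3WT and between -0.15 and 0.87 in S3KO, and 1 Ddx27 array at 2.25.

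At 0.3 h, before most transcripts of TGF-β targets accumulate, 0 of 84 RNA-processing probes were called by limma in the mean over 5 lines, and 0% of the 7217 probes of the whole array. At an unadjusted p under 0.05 there were 5, against 5.32% of all probes. Rbm33 had the smallest p here, picked after its values were seen, at 0.40 ± 0.15 (adjusted p = 0.930). Without S3WT 0.3 h replicate 2, in a fit that accepts 1 measured array in that group, a single probe passed, Lsm14b.

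The 0 h arrays carry no TGF-β on either side by their labels, so a mean ratio away from 0 there, called an offset here, is by those labels no response to TGF-β. Of 90 testable RNA-processing probes, 19 were away from 0 (21.1%), 6 higher and 13 lower, and the whole array had 19.1% called, 11.6% higher and 7.49% lower. With centring, the share of the RNA-processing probes is thus near the background. Without centring each array on its median, 28 of 90 were called (31.1%, against 22.4% of all probes), 3 higher and 25 lower, and the median of all probes lay 0.14 lower. Averaged over the 4 lines other than U0126, a choice made after seeing the data, 14 of 90 were called (15.6%, against 11.8% of all probes), 3 higher and 11 lower. Snrpb, Rbm14, Hnrnpul1, Prpf39, Rbm18 and Rbm25 were then no longer among the calls.

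The 6 higher offsets comprised 3 of Snrp and Lsm, 2 of Hnrnp and 1 of Rbm. Snrpa led with 0.63 ± 0.07 (adjusted p = 6.16e-09). Hnrnpl, a binder of CA repeats, followed at 0.48 ± 0.07 (adjusted p = 2.03e-06), its 15 arrays running from -0.20 through 0.52 to 1.07. Lsm10 of the U7 particle that trims histone transcripts was at 0.33 ± 0.06, Snrpb at 0.27 ± 0.07, Rbm14 at 0.26 ± 0.08 and Hnrnpul1 at 0.22 ± 0.08. Without centring, Snrpb, Rbm14 and Hnrnpul1 were at 0.13, 0.12 and 0.08 and did not pass.

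The lower offsets included 3 of the 7 tested cleavage and polyadenylation probes. Cstf2 was at -0.82 ± 0.20 (adjusted p = 0.00261), with arrays from -1.78 through -0.95 to 1.16. Cpsf2 was at -0.50 ± 0.09 (adjusted p = 1.7e-05) on 1 of 4 probes, and Cpsf6, a subunit of cleavage factor I, at -0.38 ± 0.12. Hnrnph2 was at -0.79 ± 0.19 and Prpf39 at -0.69 ± 0.24, and each had 1 array far below the rest, at -4.57 and -3.0. Rbm33 was at -0.56 ± 0.10, Celf1 at -0.49 ± 0.14 and -0.29 ± 0.07 on 2 of 3 probes, and Rbm18 at -0.49 ± 0.18. Hnrnpa2b1, a carrier of transcripts to be localised, was at -0.36 ± 0.08. Prpf38b stood at -0.32 ± 0.09, Rbm25 at -0.26 ± 0.09 and Prpf31, a tri-snRNP gene, at -0.21 ± 0.07.

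The offsets recurred on arrays with TGF-β. Tested against 0 in the mean of the 1 to 4 h groups, 40 of 86 RNA-processing probes were away from 0, 16 higher and 24 lower, where 50.2% of all probes were, 25.6% higher and 24.5% lower. Of the 19 probes called at 0 h, 17 were called there too, all with the same sign, which is 17 of the 19 and 17 of the 40. The matching overlap over all probes was not counted, so the recurrence is not read as particular to this set. Across 82 probes the 0 h and later means correlated with Pearson r = 0.77 and Spearman rho = 0.78, and across all 6531 probes with r = 0.68. The points share arrays and are not independent. Within the S2WT arrays at 0 h 1 probe of the set was away from 0 (0.297% of all probes), and within S3WT 5 were (3.01%). S2KO had 4 (4.66%), S3KO 3 (3.24%) and U0126 9 (5.34%). Snrpa was called in 4 of the 5 lines and not in S3KO, where its arrays read -0.11, -0.28 and 1.08. The difference between lines in these offsets was not tested.

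**Figure D5:**
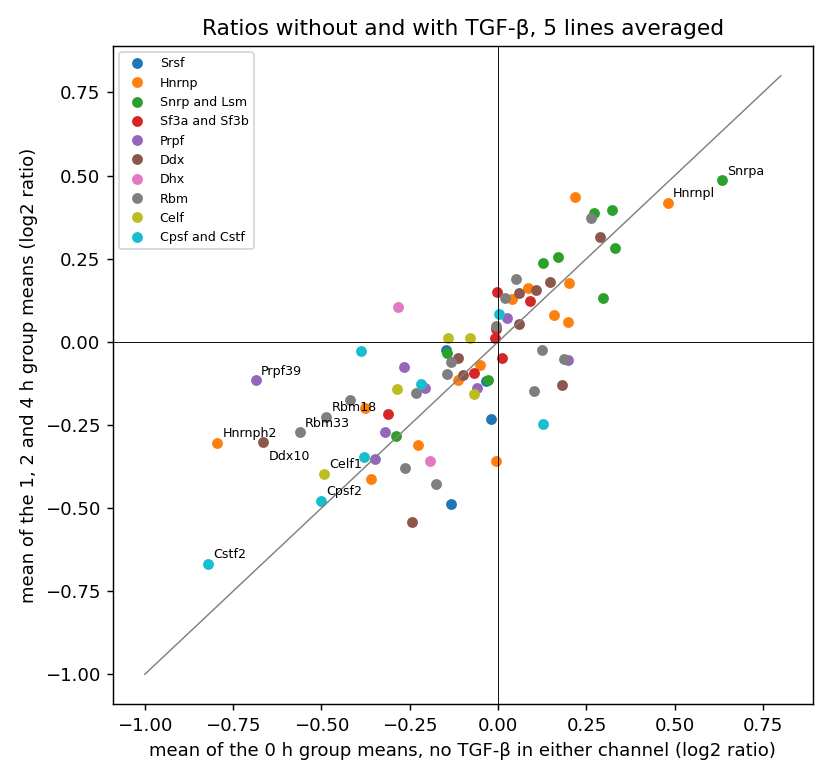
For each of 82 probes the mean log2 ratio of the 0 h groups (horizontal axis) is plotted against that of the 1, 2 and 4 h groups (vertical axis), averaged over 5 lines, with points coloured by family and the line of equality in grey. Points follow the line, from Cstf2 at -0.82 on the horizontal axis to Snrpa at 0.63.

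The pathway beyond these name families was read from a list of 87 further splicing and 3′-end genes, of which 44 had a probe. Of 53 testable probes in the mean response 0 were called by limma, where 1.07% of all probes were, and the median was 0.03. At an unadjusted p under 0.05 there were 2, against 10.5% of all probes. In S3KO 1 of 54 was called (1.85%), near the 1.53% of all probes. It was Mbnl1, a muscleblind regulator of exon choice (1.18 ± 0.26, adjusted p = 0.0118), whose mean 0 h offset over the lines was -0.44 ± 0.10. Against the joint 0 h background the S3KO response of this Mbnl1 probe was 0.42 ± 0.17 and did not pass (adjusted p = 0.831), and 0 of the 54 were called by limma, with 1 at an unadjusted p under 0.05. The other Mbnl1 probe read -0.22 ± 0.46 in S3KO against its own 0 h arrays. With the joint background 1 probe of the list was called in another line, Son, lower in S2WT (-0.44 ± 0.11, adjusted p = 0.0354). That is 1.72% of the 58 tested, against 1.27% of all probes. Against the own 0 h arrays of S2WT, 0 of 60 probes of the list were called. At 0 h 9 of 59 were away from 0 (15.3%, below the 19.1% of the whole array), 3 higher and 6 lower, among them Sf1 (0.28 ± 0.06), which recognises the branch point, and Son, a speckle protein gene (-0.33 ± 0.07). Of 18 probes of epithelial, leukocyte, endothelial and fibroblast markers, 11 could be tested in the mean response, none of them epithelial. Of the 11, 0 were called by limma, and 2 were lower at an unadjusted p under 0.05. By line 15 to 18 marker probes could be tested and 0 were called, with 0 to 3 at an unadjusted p under 0.05, and the part of other cells in these values was not tested.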

How the data were processed

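Expression was measured on 74 dual-channel arrays. The deposited table, per the file headers, gives 1 value per probe and array. From their range these are log2 ratios made by the authors, with dyes, background correction and centring not given in the sources used here. Values at the ceiling of 16.61 (1344, of which 10 in the set) were treated as missing, along with 41670 blanks, and each array was centred on its median, which lay between -0.60 and 0.22 before. The 96 probes were taken from the 7348 with 1 gene symbol, while 399 have several and 1229 none.

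Group means over all 74 arrays were fitted per probe, with variances moderated in limma 3.58.1 (R 4.3.3), a Benjamini-Hochberg adjustment over all probes tested, a threshold of 0.05 and at least 2 measured arrays in each group used. In fits with 1 array left out, the group that lost it could keep only 1 measured array. S3KO at 1 h did so without replicate 2. The procedure was tested on simulated data. Replicate numbers occur in every line. Over 146 same-numbered pairs within a line the deviations from group means correlated between -0.11 and 0.29 (median 0.05, against -0.04 for other pairs). The labels do not say what the numbers mark, so they were not taken as pairs in the main fit. A fit with them as blocks is among the alternatives.

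The set, the gene lists and the tests were chosen with earlier results of these data known. Genes named in the text are those called in any test, the 10 smallest p in the mean response, the smallest p in each line, and the smallest p of each family, with other probes of the same gene, 27 probes of 24 genes. Leads of the differences and of 0.3 h, and members given to fill out a family, were picked after their values were seen. Alternatives were no centring, scaling to a common spread, probes measured on every array, array weights, averaged probes of a gene, replicate block, no 0 h arrays, pooled 0 h arrays, 0 h without U0126, single lines and leaving out each array.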

Additional observations from a re-analysis of the deposited data

How the results depend on the processing

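The number of RNA-processing probes called was recomputed under each alternative, and counts of 0 stayed at 0 unless given here. With arrays scaled to a common spread there were 2 in the S3KO response (Ddx10 and Ddx27), where 2.72% of all probes were called. There was 1 in S3KO minus S3WT (Rbm25), where 0.475% of all were. With probes measured on every array there was 1 in S3KO minus S3WT (0.267% of all). At 0 h there were 9, from 30 probes of the set, where 40.5% of all were called. Array weights gave 1 in S3WT (Rbm33), where 1.08% of all were called. With the replicate block S3KO minus S3WT had 1 (Rbm25, adjusted p = 0.0452), where 0.391% of all probes were called, and no other count of responses moved. With the sign of S3KO 1 h replicate 2 turned, chosen after seeing the data, it had 1 (0.405% of all). Without the 0 h arrays the offsets stay in the values. Then 40 were called in the mean response (50.2% of all probes) and 31 at 0.3 h (28.5%). By line S2WT had 21 (23.1% of all), S3WT 6 (8.62%), S2KO 21 (26.6%), S3KO 2 (1.82%) and U0126 17 (14.3%). There the sign turned, and the probe was called, for Rbm33 (-0.27), Hnrnph2 (-0.30), Snrpa (0.49) and Celf1 (-0.14) in the mean response. The same held for Rbm33 in U0126 (-0.45). Without a call, the sign also turned for Prpf39 (-0.11), a Cpsf2 probe (-0.03) and Srsf3 (-0.02) in the mean response. It did so too for Prpf4b in S2WT (0.02), Rbm25 in S3WT (-0.11) and Rbm33 at 0.3 h (-0.16). Leaving out each array in turn, the count ran from 14 to 20 at 0 h (20 without S3WT 0 h replicate 2), from 0 to 1 at 0.3 h, in the mean response, in S2WT, in S3WT and in U0126 minus S2WT, from 0 to 2 in U0126, from 0 to 4 in S3KO and in S3KO minus S3WT, and from 0 to 0 in S2KO and in S2KO minus S2WT. Over these fits the calls on the whole array ran from 1167 to 1602 at 0 h, 0 to 21 at 0.3 h and 56 to 145 in the mean response. They ran from 12 to 87 in S2WT, 2 to 69 in S3WT, 4 to 33 in U0126, 52 to 593 in S3KO and 2 to 313 in S3KO minus S3WT. With all arrays, the 0 h count was 28 without centring (22.4% of all called), 18 with scaling (19.0%) and 16 with array weights (17.8%). It was 15 with probes of a gene averaged (18.8%) and 14 over the lines other than U0126 (11.8%). Leaving out centring shifted the median of all probes by up to 0.30, from -0.04 to 0.26 (U0126 minus S2WT). With the replicate numbers 60 of 74 arrays correlated best with their own number, a hint from the data and not the design.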
